A study of Mus musculus with 24 samples.

Results

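The genes of the LEM-domain proteins, Tmpo, Emd, Lemd1, Lemd2, Lemd3 and Ankle2, and Banf1, the gene of their common partner BAF, were located relative to chromatin bound by LAP2alpha and the lamins. They were chosen by name and not by a measured value, although earlier results of these data were known. They make up 7 of the 22208 protein-coding genes annotated on mm9. All 7 were found in the annotation, and each was placed in all 12 libraries, giving 84 pairs of a gene and a library.

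The LEM domain is a short helical fold that binds barrier-to-autointegration factor (BAF), a small protein that bridges double-stranded DNA. Most LEM proteins sit in the inner nuclear membrane, where they bind lamins and, through BAF, tether chromatin to the nuclear envelope and help to rebuild it after mitosis. LAP2alpha, an isoform of Tmpo, has no membrane anchor and binds A-type lamins in the nuclear interior, so that the isoform missing from the KO cells is a product of one of the genes described here.

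Immortalized murine dermal fibroblasts that were WT or KO for LAP2alpha were analysed by ChIP-seq, and the KO lacks exon 4 of Tmpo, the exon that is particular to LAP2alpha. WT chromatin was precipitated for LAP2alpha (antibody 8C10-1H11), for lamin A/C with N18 (N terminus) or 3A6 (3A6-4C11, C-terminal Ig fold), and for lamin B1. KO chromatin was precipitated with N18 and 3A6, and all chromatin was sonicated for 12 or 30 cycles in a Bioruptor. This gave 8 WT and 4 KO libraries, 1 for each combination of antibody, genotype and sonication. No library had a replicate, so no value below carries an error and no difference was tested. The lists hold regions and no reads along Tmpo and no expression, so neither the deletion nor the cell type could be checked from them, and the number of clones behind each genotype is not given in the sources used here.

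Bound chromatin was described by EDD peaks, broad domains called in 11-kb bins and termed EDD domains below, and by SICER islands, shorter enriched stretches called in 1000-bp windows. Region edges fall on these bins or windows, so exons and starts near an edge are placed no more finely than that. A gene counted as inside if regions covered 50% or more of it. The libraries held 3989494 to 13601739 reads in islands, and EDD domains covered from 9.04% (N18 WT, 30 cycles) to 36.2% (lamin B1, 30 cycles) of the genome. At each sonication, the 4 lamin A/C libraries were sequenced in 1 lane. The 12-cycle and 30-cycle libraries of LAP2alpha and of lamin A/C were on different flow cells, so these 2 factors cannot be told apart, whereas lamin B1 had both libraries in 1 lane.

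The 7 genes lay on 6 chromosomes in unlike surroundings. Positions are on mm9, counted from 1. Tmpo (chr10:90610316-90634759, minus strand) and Lemd3 (chr10:120360469-120416388, minus strand) shared chromosome 10 and had the fewest neighbours, with 4 and 6 other gene starts in the 1 Mb around their own. Banf1 (chr19:5364641-5366645, minus strand) had the most, 50, more than 95.7% of genes had, and Emd (chrX:71500026-71506887, plus strand) had 35. Lemd2 (chr17:27326546-27341383, minus strand), Ankle2 (chr5:110660060-110685666, plus strand) and Lemd1 (chr1:134088013-134153958, plus strand) had 20, 18 and 17, near the median of 15 over all genes. Lemd2 and Banf1 were rich in G and C (56.5% and 55.8% of bases), above 95.6% and 94.2% of genes. Lemd3 (41.6%), Ankle2 (42.2%) and Tmpo (42.7%) lay below the median gene (45.7%). Banf1 was the shortest member, at 2005 bp, and Lemd1 (65.9 kb) the longest.

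The 250 bases before the gene start are shown for Lemd2, Emd, Ankle2 and Lemd3, within which a region edge fell. They are also shown for Lemd1, within which none fell. For Lemd2, islands covered the start in 3 libraries and stopped short of it in 2, and for Emd the only island began past the start. For Ankle2 an island covered it, for Lemd3 a domain reached it and ended within the first intron, and Lemd1 lay in domains without being touched by an island. The stretches are chr1:134087763-134088012 (Lemd1, plus strand), chr17:27341384-27341633 (Lemd2, minus), chr10:120416389-120416638 (Lemd3, minus), chr5:110659810-110660059 (Ankle2, plus) and chrX:71499776-71500025 (Emd, plus), read 5′ to 3′ from the mm9 genome, with each CG dinucleotide in capitals.
Lemd1: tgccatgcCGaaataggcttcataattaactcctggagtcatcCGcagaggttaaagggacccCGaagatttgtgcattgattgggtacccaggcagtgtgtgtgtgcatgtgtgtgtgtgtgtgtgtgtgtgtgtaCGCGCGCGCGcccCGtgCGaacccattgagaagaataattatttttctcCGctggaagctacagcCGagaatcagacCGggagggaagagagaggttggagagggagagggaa
Lemd2: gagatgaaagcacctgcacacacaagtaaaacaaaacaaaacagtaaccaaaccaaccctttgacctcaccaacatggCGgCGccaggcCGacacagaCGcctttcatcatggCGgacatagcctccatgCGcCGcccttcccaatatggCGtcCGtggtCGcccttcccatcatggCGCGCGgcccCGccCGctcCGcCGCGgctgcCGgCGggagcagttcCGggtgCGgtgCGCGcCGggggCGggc
Lemd3: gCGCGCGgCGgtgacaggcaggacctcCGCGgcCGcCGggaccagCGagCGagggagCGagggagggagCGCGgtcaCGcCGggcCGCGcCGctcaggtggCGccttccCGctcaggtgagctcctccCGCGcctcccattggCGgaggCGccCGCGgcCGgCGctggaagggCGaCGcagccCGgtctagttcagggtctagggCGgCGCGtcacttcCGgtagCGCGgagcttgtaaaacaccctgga
Ankle2: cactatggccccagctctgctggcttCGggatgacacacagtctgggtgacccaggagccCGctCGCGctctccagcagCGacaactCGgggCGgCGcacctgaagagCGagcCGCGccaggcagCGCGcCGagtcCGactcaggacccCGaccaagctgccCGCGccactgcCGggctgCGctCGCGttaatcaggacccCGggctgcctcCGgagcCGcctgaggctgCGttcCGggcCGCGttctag
Emd: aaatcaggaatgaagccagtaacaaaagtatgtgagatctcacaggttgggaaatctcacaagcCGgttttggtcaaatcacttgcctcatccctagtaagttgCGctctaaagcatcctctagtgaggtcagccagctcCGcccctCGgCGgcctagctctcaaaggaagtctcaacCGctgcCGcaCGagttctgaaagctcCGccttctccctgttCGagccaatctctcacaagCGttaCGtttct

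Lemd3 held 37 CG dinucleotides in this stretch, Ankle2 29 and Lemd2 26, against a median of 8 over 22203 genes. These counts were above those of 97.5%, 92.6% and 89.3% of genes. Lemd1 held 13 and Emd 12, closer to the median. Banf1 held 25 and Tmpo 7, but their longest coding transcripts start 298 and 432 bp inside the annotated gene, so their stretches are not printed. The CG-richest stretch of the printed genes, that of Lemd3, belonged to a gene that no island touched in any library.

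Across the 12 libraries, Lemd1 and Lemd2 were each inside EDD domains in 5, Ankle2 in 2, Banf1 and Emd in 1 each, and Tmpo and Lemd3 in none. The median gene was inside in 2 libraries, 32.9% of all genes were inside in none, and 12.0% were inside in more than 5. Of the 84 pairs, 14 were inside domains, and in every one of these the whole gene was covered. Of these pairs, 11 came from the 42 at 12 cycles (26.2%, against 21.0% of all gene and library pairs) and 3 from the 42 at 30 cycles (7.14%, against 17.6%). Lemd1 and Lemd2 gave 8 of the 11 pairs at 12 cycles, and the libraries share inputs, so the pairs are not independent and the shares at 12 cycles are close to those of all genes. SICER islands held 9 pairs, 8 at 12 cycles and 1 at 30 cycles (19.0% and 2.38%, against 12.2% and 8.23% of all pairs).

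**Figure D1:**
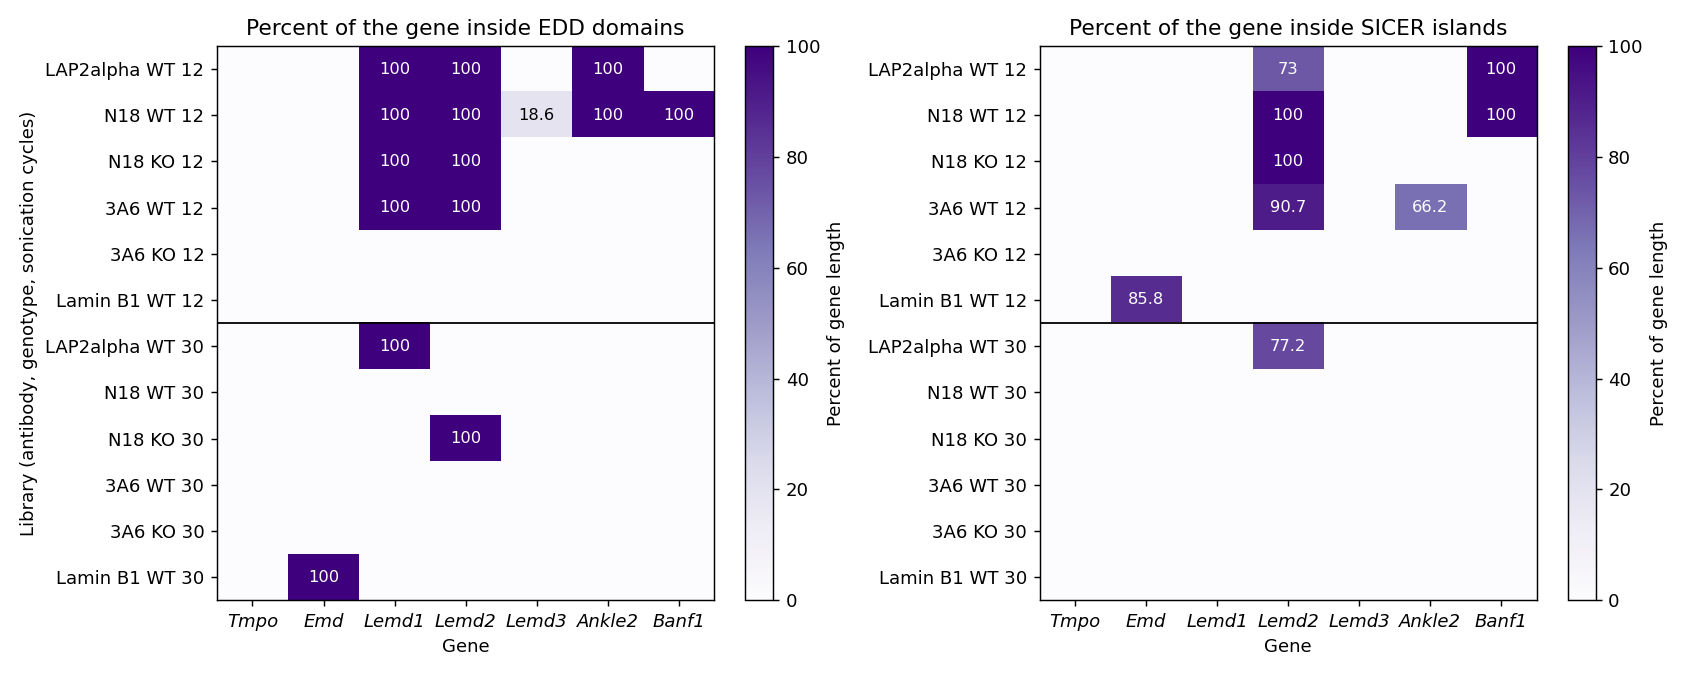
Percent of each gene (columns) covered by EDD domains (left) and SICER islands (right) in each of 12 libraries (rows, named by antibody, genotype and sonication cycles), with every value above 0 printed. The line divides 12 from 30 cycles. Of the 14 pairs inside domains, 11 stand above the line, and the columns of Tmpo and Lemd3 are empty except for 18.6% of Lemd3 in N18 WT at 12 cycles.

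At 12 cycles, LAP2alpha domains held 3 of 7 members (Lemd1, Lemd2, Ankle2), where 35.9% of all genes were inside. N18 WT domains held the same 3 and Banf1, 4 of 7, against 27.4% of genes. N18 KO domains held Lemd1 and Lemd2 (23.1% of genes), and so did 3A6 WT domains (21.1%). None was inside in 3A6 KO (10.7% of genes) or in lamin B1 (7.78%).

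At 30 cycles, LAP2alpha domains held Lemd1 alone while 32.3% of genes were inside. N18 KO domains held Lemd2 alone (28.5% of genes), and lamin B1 domains held Emd alone (16.8%). No member was inside in N18 WT (5.89% of genes), 3A6 WT (9.40%) or 3A6 KO (12.6%). No member was inside in both LAP2alpha and lamin B1 domains at either sonication. At the shorter sonication lamin B1 domains held no member, so no member could be in both. At 30 cycles the LAP2alpha and lamin B1 libraries held only Lemd1 and only Emd. The share of all genes inside both was not computed, so nothing is read from this about separate binding.

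Lemd2, which encodes LEM2, an inner nuclear membrane protein that recruits the ESCRT factor CHMP7 to the reforming envelope, was the member seen by both kinds of region most often. Its EDD coverage was 100% in LAP2alpha, N18 WT, N18 KO and 3A6 WT at 12 cycles and in N18 KO at 30 cycles, and 0 in the other 7 libraries. The domains around it differed in size by library. In LAP2alpha at 12 cycles the domain ran over 7.48 Mb (chr17:24508001-31988000) with a score of 56.8, rank 20 of 254, and in N18 WT over 7.80 Mb (chr17:24420001-32219000) with a score of 48.4, rank 14 of 238. In 3A6 WT it ran over 3.40 Mb and scored 15.3.

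In N18 KO at 12 cycles the Lemd2 domain measured 0.759 Mb (chr17:26917001-27676000) and scored 5.84, rank 177 of 239. Lemd2 then lay 335 kb from an edge, against 2907 kb in N18 WT. This was the only one of the 14 inside calls that was lost when domains at or below the median score of their library were left out. In N18 KO at 30 cycles, the domain again spanned 7.56 Mb (chr17:24398001-31955000) with a score of 25.7. The state inside thus covered domains whose lengths spanned 0.759 to 7.80 Mb.

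SICER islands covered 73.0% of Lemd2 in LAP2alpha, 100% in N18 WT, 100% in N18 KO and 90.7% in 3A6 WT at 12 cycles, and 77.2% in LAP2alpha at 30 cycles, and 0 in the other 7. In LAP2alpha at 12 cycles a pair of islands covered it, chr17:27315001-27332000 with 441 reads and chr17:27336001-27402000 with 1632 reads, leaving the stretch between intron 5 and intron 3 uncovered. The larger island of this pair covered the start and exons 1 to 3. In N18 WT a single island of 85 kb held 1708 reads, or 20.1 reads per kb, and in N18 KO an island of 68 kb held 1474, or 21.7 per kb. In 3A6 WT an island of 18 kb with 358 reads ended in intron 1, 1383 bp short of the gene start, so that the promoter stretch printed above was not in the called island. Islands were called in windows of 1000 bp with a gap of 3000 bp, so offsets of this size are near the resolution of the calls.

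At 30 cycles, LAP2alpha kept an island of 14 kb over Lemd2 with 558 reads (39.9 per kb) that ended in intron 2, 3383 bp short of the start, while the nearest LAP2alpha domain was 56.0 Mb away. The reverse held in N18 KO at 30 cycles, where the gene lay inside a domain and no island touched it, although 14 islands lay in the 1 Mb around its start. Reads per kb of island averaged 21.1 in LAP2alpha at 12 cycles and 38.4 at 30 cycles, beside 25.0 and 39.9 for the islands over Lemd2.

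Lemd1, which encodes a small LEM protein best known from testis and tumours, showed the largest gap between the 2 kinds of region. It was covered to 100% by EDD domains in LAP2alpha, N18 WT, N18 KO and 3A6 WT at 12 cycles and in LAP2alpha at 30 cycles, and no island touched it in any library. The 12-cycle domains of LAP2alpha and 3A6 WT had the same borders, chr1:130339001-139238000, 8.90 Mb. They scored 91.0 and 60.9, rank 9 of 254 and 10 of 285. N18 WT gave 6.93 Mb with a score of 72.9, and N18 KO gave 9.26 Mb with a score of 39.3.

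In LAP2alpha at 30 cycles Lemd1 lay in a domain of 71.4 Mb (chr1:70345001-141702000), rank 2 of 194 by score. The 1 Mb around the start of Lemd1 held 1 island in N18 KO at 12 cycles and 0 in the other 11 libraries. Chromosome 1 as a whole carried 4 to 16 islands per library, 0.083% to 0.211% of its length, so the lack of islands over Lemd1 was shared by its chromosome. The cause of the difference between the callers there was not tested.

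Ankle2, whose product promotes dephosphorylation of BAF at mitotic exit, lay just within the end of a long domain. It was covered to 100% in LAP2alpha and N18 WT at 12 cycles and to 0 in the other 10 libraries. The LAP2alpha domain (chr5:110583001-151338000) measured 40.8 Mb and the N18 WT domain (chr5:110506001-143209000) 32.7 Mb, and each ranked 1 by score in its library. The gene lay 77.1 kb and 154 kb from their edges, the 2 shortest distances of the 14 inside pairs. Outside domains, the nearest edge was 40.3 kb away in N18 KO at 30 cycles, 341 kb in 3A6 WT and in lamin B1 at 12 cycles, and 2130 kb in N18 WT at 30 cycles. A single island touched Ankle2. In 3A6 WT at 12 cycles, an island of 19 kb (chr5:110658001-110677000, 327 reads) covered its start, exons 1 to 7 and 66.2% of its length, in a library whose domains left the gene out.

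Banf1, the gene of BAF itself, was inside a domain only in N18 WT at 12 cycles among the 12 libraries. That domain (chr19:3267001-6688000) measured 3.42 Mb and scored 10.8, rank 77 of 238. In LAP2alpha at 12 cycles, Banf1 lay 133 kb outside a domain but wholly within an island of 41 kb with 963 reads (chr19:5358001-5399000). In N18 WT at 12 cycles an island of 153 kb with 3303 reads (chr19:5320001-5473000) also held it whole. In the other 10 libraries both coverages were 0. The nearest domain lay 573 kb away in 3A6 WT, 782 kb in N18 KO, 2234 kb in 3A6 KO and 2388 kb in lamin B1 at 12 cycles.

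**Figure D2:**
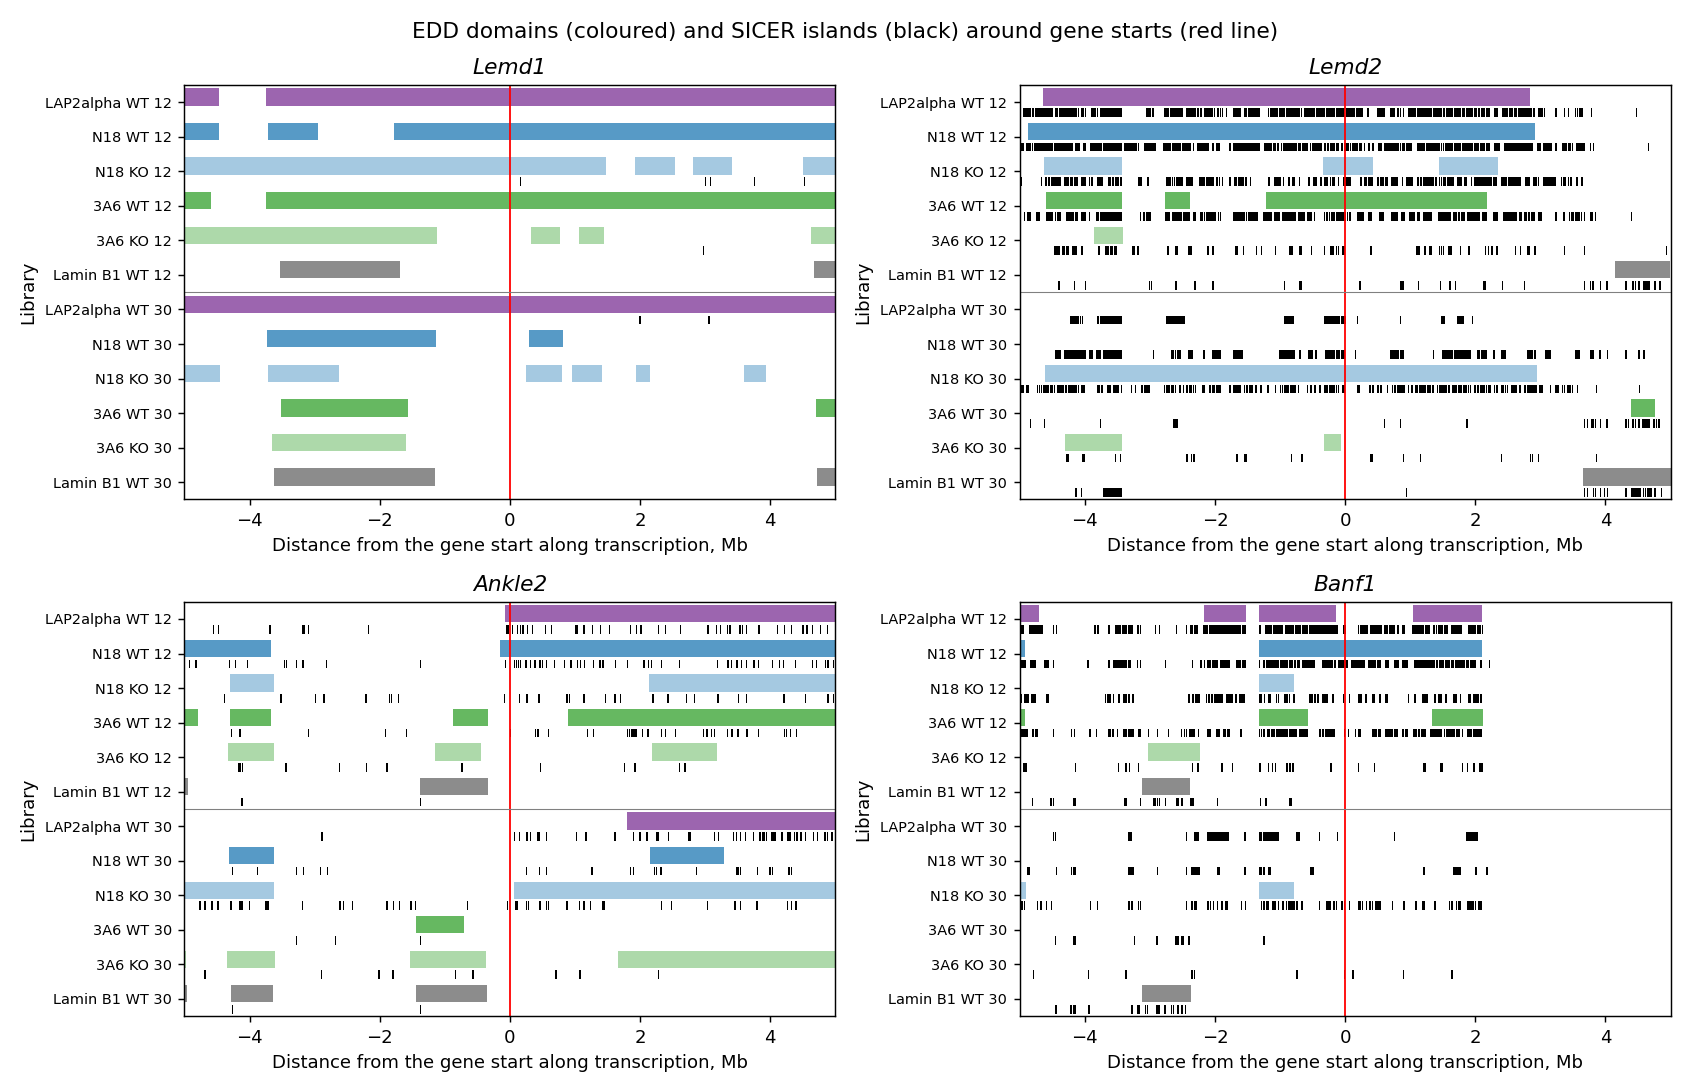
EDD domains (coloured bars, paler for KO) and SICER islands (black ticks, drawn at least 10 kb wide) within 5 Mb of the starts of Lemd1, Lemd2, Ankle2 and Banf1 in 12 libraries, against the distance from the start in Mb along the direction of transcription. The red line at 0 lies within bars in 5 rows for Lemd1, 5 for Lemd2, 2 for Ankle2 and 1 for Banf1. The right end of the Banf1 panel is the start of the chromosome, which carries no called regions.

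Emd, which encodes emerin, the protein lost in X-linked Emery-Dreifuss muscular dystrophy, was the one member that lamin B1 regions reached. It was inside a lamin B1 domain at 30 cycles (chrX:52536001-120153000), which spanned 67.6 Mb and ranked 1 of 370 by score. Lamin B1 domains covered 71.8% of the X chromosome in this library and 32.1% at 12 cycles, where Emd lay 1632 kb outside. A lamin B1 island of 10 kb at 12 cycles (chrX:71501001-71511000, 372 reads) covered 85.8% of Emd. It began in intron 3, 975 bp past the gene start, a distance below the 1000-bp window of the calls, and ran past the end of the gene. No island touched Emd in the lamin B1 library at 30 cycles, and both coverages were 0 in the other 10 libraries.

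The nearest domain to Emd was 59.3 Mb away in LAP2alpha and 3A6 WT and 59.4 Mb away in N18 WT at 12 cycles. It was 473 kb away in N18 KO and 198 kb in 3A6 KO. Domains on the X chromosome as a whole rose in number between the same libraries, from 2 in N18 WT to 13 in N18 KO and from 1 in 3A6 WT to 26 in 3A6 KO, and LAP2alpha at 30 cycles had none there. The 1 Mb around Emd nevertheless held 14 islands in LAP2alpha, 7 in N18 WT and 9 in 3A6 WT at 12 cycles.

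Lemd3, which encodes MAN1, an inner nuclear membrane protein that binds receptor-regulated SMADs, was touched by 1 region in all lists. In N18 WT at 12 cycles a domain of 0.891 Mb with a score of 7.66 (chr10:120406001-121297000) covered the start, exon 1 of 14 and 18.6% of the gene, and ended in intron 1. Its edge passed the start by 10.4 kb, less than the 11-kb bin of the calls. Domain edges came close in other libraries as well. The nearest lay 33.6 kb away in LAP2alpha and 88.6 kb away in 3A6 WT at 12 cycles, and 66.6 kb away in LAP2alpha, 144 kb in 3A6 KO and 210 kb in N18 KO at 30 cycles. Its neighbour Wif1, 54.6 kb from Lemd3, had the same state in 9 of 12 libraries, while Msrb3 on the other side had the same state in all 12. The state of Lemd3 and Wif1 thus differed in 3 libraries.

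Tmpo, which encodes LAP2alpha and the membrane-bound LAP2 isoforms, was covered by no domain and no island in any of the 12 libraries. Exon 4 of the 4-exon transcript (chr10:90623162-90626106, 2945 bp), the exon deleted in KO cells, was thus outside all called regions in the WT libraries. Its state in KO libraries says nothing, because the exon is absent from those cells. The nearest domain was 60.2 kb away in LAP2alpha at 30 cycles and 454 kb in lamin B1 at 30 cycles. In the other 8 libraries with a domain on chromosome 10 it lay from 1719 kb (3A6 KO, 30 cycles) to 9718 kb (lamin B1, 12 cycles) away. The 1 Mb around the Tmpo start held 0 to 4 islands per library.

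N18 KO and 3A6 KO at 12 cycles had no domain on chromosome 10, which carries Tmpo and Lemd3. They had 1 and 0 islands there, against 208 and 223 in the matching WT libraries and 268 in LAP2alpha. No distance could be given for Tmpo and Lemd3 in these libraries, and the fall in Lemd3 coverage from 18.6% to 0 with N18 was part of a fall over the whole chromosome. Whether the absence came from the cells or from the libraries was not tested.

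Of the 84 pairs, 63 lay outside domains with a domain elsewhere on the chromosome, at 33.6 kb to 59.4 Mb and a median of 1719 kb. Of these, 6 were within 100 kb of an edge: Lemd3 in 3 libraries and Tmpo, Lemd2 and Ankle2 in 1 each. The 14 inside pairs lay 77.1 kb to 19.0 Mb from the nearest edge, with a median of 2299 kb. In 6 pairs the chromosome held no domain, and 1 pair, Lemd3 in N18 WT at 12 cycles, had the edge within the gene. The inside pairs nearest to an edge were those of Ankle2, and the outside pair nearest to one was Lemd3 in LAP2alpha at 12 cycles. Distances were not computed over all genes, so these counts and medians cannot be called unusual or usual.

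**Figure D3:**
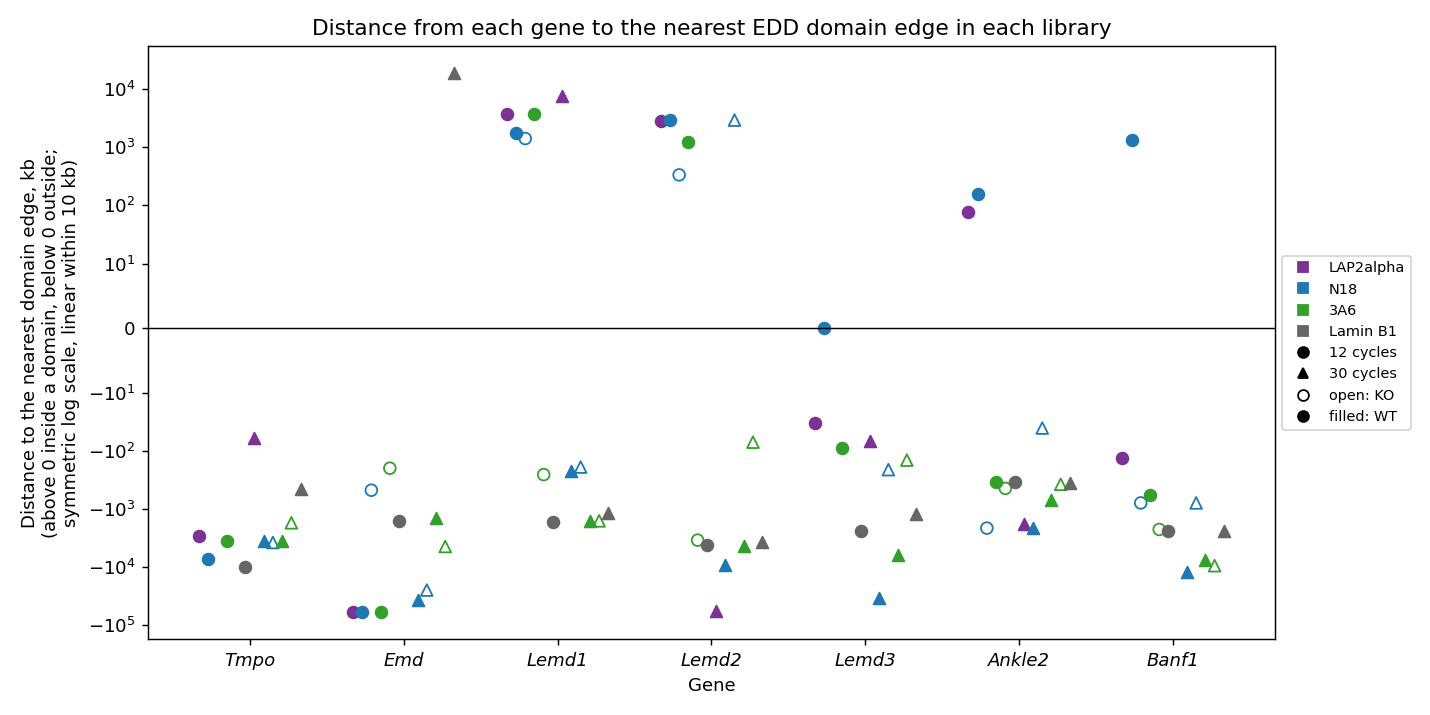
Distance in kb from each gene to the nearest EDD domain edge in each library, above 0 inside a domain and below 0 outside, on a symmetric log scale that is linear within 10 kb. Colour gives the antibody, circles 12 and triangles 30 cycles, and open symbols KO. Points of Lemd1 and Lemd2 lie on both sides of 0, those of Tmpo all below it, and the point at 0 is Lemd3 in N18 WT at 12 cycles. The 6 pairs with no domain on the chromosome are not drawn.

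SICER coverage of at least 50% of a gene had its own background in each library. At 12 cycles, islands held Lemd2 and Banf1 in LAP2alpha, where 16.9% of genes were inside, and the same pair in N18 WT (15.9%). They held Lemd2 in N18 KO (15.8%), Lemd2 and Ankle2 in 3A6 WT (12.7%), none in 3A6 KO (6.97%) and Emd in lamin B1 (5.03%). At 30 cycles, islands held Lemd2 in LAP2alpha (11.5%) and none of the 7 in N18 WT (8.69%), N18 KO (14.8%), 3A6 WT (4.44%), 3A6 KO (4.73%) and lamin B1 (5.21%). In each of these 9 pairs islands covered at least 66.2% of the gene.

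Islands around the genes gave a graded measure that the calls above do not use. In the 1 Mb around Lemd2, there were 17 islands in LAP2alpha, 17 in N18 WT, 18 in N18 KO, 18 in 3A6 WT, 8 in 3A6 KO and 1 in lamin B1 at 12 cycles. At 30 cycles, these numbers were 5, 6, 14, 0, 1 and 0 in the same order. Over all genes the medians were 4, 3, 2, 3, 1 and 0 at 12 cycles and 1, 2, 3, 0, 1 and 0 at 30 cycles. Lemd2 thus lay above the median gene in 9 libraries, and N18 KO stood apart from the other 30-cycle libraries. Chromosome 17 as a whole was rich in islands. In N18 WT at 12 cycles, they covered 27.7% of it and 33.8% of chromosome 19, which carries Banf1. The chromosomes of the other members were covered to 0.115% to 5.46% in that library. High numbers around Lemd2 are therefore not shown to be particular to the gene.

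Around Banf1, there were 8 islands in LAP2alpha, 13 in N18 WT, 13 in N18 KO, 11 in 3A6 WT, 4 in 3A6 KO and 0 in lamin B1 at 12 cycles. At 30 cycles, N18 KO held 15 and the other 5 libraries 0 to 2. Around Ankle2, LAP2alpha held 8, N18 WT 10, N18 KO 5, 3A6 WT 4, 3A6 KO 1 and lamin B1 0 at 12 cycles, and at 30 cycles LAP2alpha held 7, N18 WT 2 and N18 KO 5 with 0 in the other 3. Banf1 and Lemd2 shared high N18 KO numbers at both sonications. In N18 KO, islands covered 17.8% of chromosome 17 and 17.0% of chromosome 19 at 12 cycles, and 18.2% and 16.7% at 30 cycles. On the chromosomes of the other members they covered at most 3.74% and 6.78%. In N18 WT at 30 cycles, islands covered more of both, 24.6% of chromosome 17 and 21.1% of chromosome 19. The 1 Mb around Lemd2 and Banf1 nevertheless held only 6 and 1 islands there. The cause of the high N18 KO numbers was not tested. The 1 Mb around Lemd3 held at most 6 islands, in 3A6 WT at 12 cycles.

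**Figure D4:**
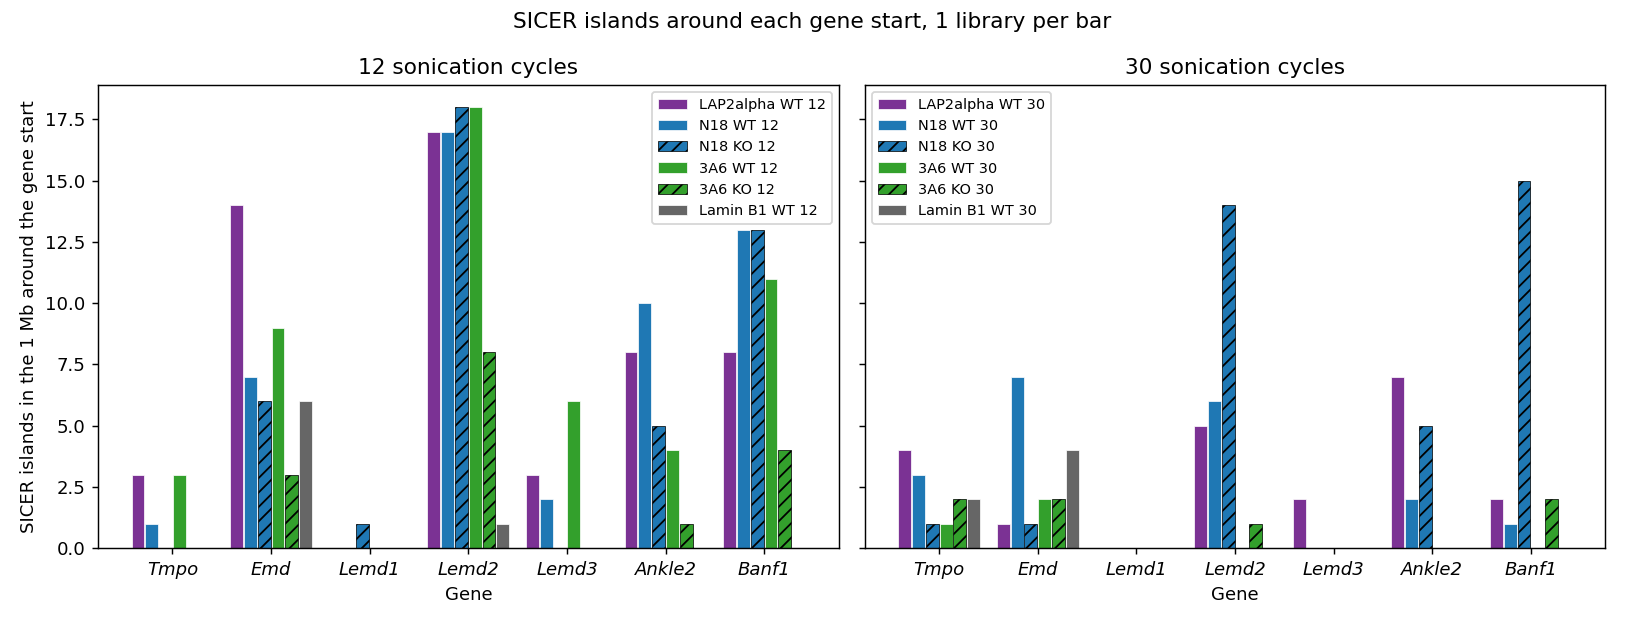
Number of SICER islands in the 1 Mb around each gene start at 12 (left) and 30 (right) sonication cycles, 1 bar per library, with colour for the antibody and hatching for KO. Lemd2 stands highest at 12 cycles, with 17 or 18 islands in 4 libraries, and at 30 cycles the bars of N18 KO at Lemd2 (14) and Banf1 (15) rise above the rest. Lemd1 has 1 island in 1 library.

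The KO libraries asked what happens to lamin A/C at these genes without LAP2alpha. With N18 at 12 cycles, Ankle2 and Banf1 passed from 100% to 0 and counted as lost, while Lemd1 and Lemd2 kept 100% and none was gained. Over all genes 11.9% were lost and 7.64% gained. Ankle2 then lay 2119 kb and Banf1 782 kb from a domain. On chromosome 5, which carries Ankle2, 205 of 1301 genes were lost (15.8%), and on chromosome 19, which carries Banf1, 240 of 720 were lost (33.3%). The 1 Mb around Ankle2 went from 10 islands to 5, while that around Banf1 held 13 in both, although the island over Banf1 was absent in KO.

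With 3A6 at 12 cycles, the 2 members lost were Lemd1 and Lemd2, and none was kept or gained, against 15.4% of all genes lost and 5.00% gained. Lemd1 then lay 255 kb and Lemd2 3415 kb from a domain. On chromosome 1, 469 of 1225 genes were lost (38.3%), and on chromosome 17, 199 of 1079 (18.4%). Islands over Lemd2 and Ankle2 were also absent in KO (90.7% to 0 and 66.2% to 0), and the islands around Lemd2 went from 18 to 8. Lemd1 and Lemd2 kept N18 domains in KO, and Ankle2 and Banf1 had no 3A6 domain in WT. The kept N18 call of Lemd2 rested on the low-scoring KO domain described above. With domains above the median score of their library, Lemd2 was lost with N18 too, and 3 members changed in place of 2. Whether the genotype difference differs between N18 and 3A6 was not tested.

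With N18 at 30 cycles, Lemd2 was gained, from 0 (9256 kb from a domain) to 100%, and no member was lost. Over all genes 24.4% were gained and 1.76% lost, and on chromosome 17 the share gained was 34.7%. The islands around Lemd2 went from 6 to 14 and those around Banf1 from 1 to 15, while N18 KO held 13601739 reads in islands and N18 WT 9600190. With 3A6 at 30 cycles no member was inside in either genotype, where 5.75% of all genes were lost and 8.94% gained. The distance of Lemd2 from a 3A6 domain was 4381 kb in WT and 70.6 kb in KO.

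Fewer members were inside domains at 30 than at 12 cycles with LAP2alpha, with N18 in both genotypes and with 3A6 in WT cells. In N18 KO this was 1 against 2. With domains above the median score of the library, it held Lemd1 alone at 12 cycles and Lemd2 alone at 30, so the direction was lost. Over all genes N18 KO went the other way, from 23.1% inside at 12 cycles to 28.5% at 30. With LAP2alpha, Lemd2 and Ankle2 were inside at 12 cycles alone and Lemd1 at both, where 15.7% of all genes were inside at 12 cycles alone and 12.1% at 30 cycles alone. With N18 in WT cells, Lemd1, Lemd2, Ankle2 and Banf1 were all inside at 12 cycles alone (24.2% of genes, and 2.71% at 30 cycles alone). With 3A6 in WT cells, Lemd1 and Lemd2 were inside at 12 cycles alone (20.1%, and 8.39% at 30 cycles alone).

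In KO cells, N18 held Lemd1 at 12 cycles alone and Lemd2 at both (6.84% of genes at 12 cycles alone and 12.2% at 30 cycles alone). With 3A6 in KO cells no member changed (5.47% and 7.35%). Lamin B1 gained Emd at 30 cycles (9.58% of genes at 30 cycles alone, against 0.599% at 12 cycles alone). On the X chromosome 409 of 927 genes, 44.1%, became inside in the same comparison.

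The neighbours of the members mostly had the same state. The nearest gene on each side was inside or outside EDD domains together with the member in all 12 libraries for Tmpo, Emd, Lemd1, Ankle2 and Banf1. Grm4, 218 kb from Lemd2, had its state in 11 of 12. For SICER islands, Golga3 and Pgam5 each had the state of Ankle2 in 10 of 12 libraries, and Flna and Rpl10 that of Emd in 10 of 12. Eif1ad, 167 bp from Banf1, had the state of Banf1 in all 12 libraries for domains and in 10 for islands. For domains, then, most states of a member were shared with the genes next to it. The domains over members measured 0.759 Mb or more and these neighbours lay within 218 kb, so agreement was largely fixed in advance. How often neighbours agree over all genes was not computed.

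Genes on other chromosomes with the likest coverage were sought over the 12 libraries, by the mean absolute difference in percentage points over EDD domains and SICER islands. For Lemd2 they were Rasgrp2 (3.51 points) and 2810428I15Rik (4.73), for Banf1 Prrc2a (0) and Tcf19 (0.328), for Ankle2 D10Wsu102e (0.426) and Zbtb12 (0.450), for Lemd1 4732471J01Rik and Atp5sl (0 each), for Emd Gm17582 and Gm6404 (0.592 each), and for Lemd3 Spata17 (0.405) and Vps39 (0.453). The same 12 EDD states were shared by 403 genes on other chromosomes and 75 on its own for Lemd2, by 482 and 209 for Emd, by 353 and 8 for Ankle2, by 175 and 52 for Banf1, and by 30 and 178 for Lemd1. For Lemd3, inside domains in no library, they were shared by 6912 and 387, so its small differences mark no particular likeness. Most genes with the states of Lemd1 thus lay on chromosome 1, and most of those with the states of Ankle2 lay elsewhere.

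Of 15 further genes of LEM and BAF biology, all 15 were annotated. The kinase gene Vrk1, whose product phosphorylates BAF and releases it from DNA, was inside domains in 8 libraries, more than any member. It was inside in LAP2alpha, N18 WT, N18 KO, 3A6 WT and 3A6 KO at 12 cycles and in LAP2alpha, N18 KO and 3A6 KO at 30 cycles. Its relatives Vrk3 and Vrk2 were inside in 6 and 3 libraries. Ankle1, which encodes an endonuclease with a LEM domain, was inside in 5. The BAF paralogue gene Banf2 was inside domains in none, and neither were the ESCRT genes Chmp7 and Chmp4b, Rb1 or Smad3. The same held for Gmcl1, which encodes an emerin-binding protein. SICER islands ordered these genes differently. Gmcl1 was inside islands in 4 libraries, Chmp7 in 3 and Chmp4b in 2, while no island touched Vrk1, Vrk2 or Vrk3 in any library. Chromosome 7, which carries Vrk3, held only 1 to 5 islands per library. Chromosome 12, which carries Vrk1, held 0 to 5 in WT and 79 to 228 in KO libraries. The lack of islands over Vrk3, and over Vrk1 in WT, was thus shared by the chromosome. Chromosome 11, which carries Vrk2, held 84 to 686. Ankle1 was inside islands in 6 libraries, and Banf2, Rb1 and Smad3 were inside them in none. The cause of this difference between the callers was not tested.

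Among the genes of protein phosphatases, which reverse such phosphorylation, Ppp2ca was inside domains in 2 libraries, Ppp2r1a in 3 and Ppp4c in 1. At 12 cycles, domains held 4 of the 15 with LAP2alpha (35.9% of all genes), 3 with N18 WT (27.4%), 5 with N18 KO (23.1%), 3 with 3A6 WT (21.1%), 2 with 3A6 KO (10.7%) and 0 with lamin B1 (7.78%). At 30 cycles, they held 5 with LAP2alpha (32.3%), 0 with N18 WT (5.89%), 4 with N18 KO (28.5%), 2 with 3A6 WT (9.40%), 3 with 3A6 KO (12.6%) and 2 with lamin B1 (16.8%). Most of these counts lie near the share of all genes, and nothing is read from them about the list. Ppp2r1a and Vrk2 were inside domains only in 30-cycle libraries, 3A6 WT, 3A6 KO and lamin B1. Islands held Ppp2r1a in 4 libraries, among them N18 WT at 12 cycles.

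Between genotypes, with N18 at 12 cycles 0 of the 15 were lost and 2 gained, the deacetylase gene Hdac3 and Smad2 (11.9% and 7.64% of all genes). With 3A6 at 12 cycles Ankle1 and Vrk3 were lost and Smad2 was gained (15.4% and 5.00% of all genes). With N18 at 30 cycles none was lost and Ankle1, Vrk1, Vrk3 and Smad2 were gained (1.76% and 24.4%), and with 3A6 at 30 cycles none was lost and Vrk1 was gained (5.75% and 8.94%). These counts, too, are near the shares of all genes. The gain of Hdac3 and Smad2 with N18 at 12 cycles stood in a chromosome whose EDD coverage went from 5.76% to 32.3% between the same libraries. Smad2, whose product is among the SMADs that MAN1 binds, was thus inside in N18 KO at both sonications and in 3A6 KO at 12 cycles, and in no WT library. The 3A6 KO domain measured only 0.495 Mb, rank 224 of 328 by score. In LAP2alpha, N18 WT and 3A6 WT at 12 cycles, a domain lay 28.2 kb from Smad2. With 3A6 at 12 cycles, EDD coverage of its chromosome also went from 7.11% in WT to 29.2% in KO. The pattern is not shown to be particular to Smad2.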

How the data were processed

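Region lists of 12 ChIP-seq libraries were used, 1 per group, and 12 further samples of the series were not analysed here. According to the submitters' processing notes, cutadapt, Bowtie2 2.1.0 with mm9, Picard and SICER 1.1 were used by the authors. The deposited island lists hold read counts per island (window 1000 bp, gap 3000 bp, FDR 0.01), and the deposited domain lists hold the EDD score of each domain (bins of 11 kb, gap penalty 5, FDR 0.1). Antibodies of the same genotype and sonication were called against shared input, so their lists are not independent. Reads in islands, 3989494 to 13601739 per library, are not the sequencing depth, which was not used here. No interval could be given for the region calls.

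Genes came from GENCODE vM1 on NCBIM37 (mm9), with the longest record per symbol (22208 genes from 22350 records). Coverage, distances and sequences were computed with Python 3.11.15 and NumPy 2.4.6, and the overlap functions were tested on simulated data. Lost and gained genes were inside domains in WT alone or KO alone. The members and gene lists were chosen with earlier results of these data known. Genes named are all 7 members and, where a result turns on them, the 2 nearest neighbours, the 2 genes on other chromosomes with the likest coverage (for members with EDD coverage above 0), and the list genes. Alternatives changed the domain score, length and joining, the overlap required and the caller.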

Additional observations from a re-analysis of the deposited data

Results flagged for a closer look

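For 4 genes, the number of SICER islands in the 1 Mb around the start moved in opposite directions from WT to KO at 12 and at 30 cycles. Each value rests on 1 library per genotype and sonication, and the difference between sonications was not tested. With 3A6, the KO minus WT difference was -10 islands at 12 cycles and 1 at 30 cycles for Lemd2, a gap of 11 islands. It was -7 and 2 for Banf1, a gap of 9, and -3 and 1 for Tmpo, a gap of 4. With N18, it was -5 and 3 for Ankle2, a gap of 8. Over all 22208 genes, the differences at the 2 sonications had opposite signs for 25.9% with 3A6, against 3 of 7 members, and for 28.9% with N18, against 1 of 7. A fall at 12 cycles with a rise at 30 cycles made up 22.0% of all genes with 3A6 and 25.8% with N18, and the pattern was not shown to be particular to the members. The 12-cycle and 30-cycle libraries were on different flow cells, and N18 KO at 30 cycles held the most reads in islands of the 12 libraries.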

How the results depend on the processing

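Of 103 alternative values of the counts and medians, 97 stayed within 1.5 times the reported value and 6 moved. All 90 alternative values of single-gene differences kept theirs, but they covered only differences already at 100 points up or down, and no SICER islands. They therefore do not cover smaller differences. That of Lemd2 between genotypes with N18 at 12 cycles, for example, moved with domains above the median score. With domains above the median score of their library, the members changing between 12 and 30 cycles with N18 in KO cells numbered 2 in place of 1, because Lemd2 dropped out at 12 cycles. The other 5 came from SICER islands with any overlap in place of EDD domains. Pairs inside numbered 9 in place of 14. Members changing between WT and KO numbered 1 in place of 2 with N18 at 12 cycles and 0 in place of 1 with N18 at 30 cycles. Members changing between 12 and 30 cycles numbered 1 in place of 2 with LAP2alpha and 2 in place of 4 with N18 in WT cells. With islands, 13 of the 84 states changed, 9 from inside to outside and 4 the other way. Any overlap with a domain, or the gene start alone, added Lemd3 in N18 WT at 12 cycles. A minimum domain length of 500 kb, joining over gaps of up to 100 kb, the whole gene, 50 kb on each side and all records joined changed no state. No paired analysis was possible because each group has 1 library, and leaving out a replicate was not possible for the same reason.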
